A study of Mus musculus with 6 samples.

Results

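The aquaporins examined here were Aqp1, Aqp3, Aqp4, Aqp5, Aqp7, Aqp8 and Aqp9, chosen by name and in part because the Aqp5 signal differed widely between the 2 lactating glands. Every probe set that the platform annotation assigns to 1 of these symbols was taken, which gave 14 of the 45101 probe sets on the array for 7 of 18193 genes. Values of the mutant and the control in the lactating pair therefore helped to choose the members and are given below as a description, with no test. The series measured RNA of whole mammary glands from 6 female mice on a mixed background of 129, FVB and Black Swiss, 1 mouse per array, as 3 pairs of 1 Brca1 mutant with 1 control, each pair at its own stage. Its stated aim was to find genes regulated by Brca1. The virgin pair, 6 months old, and the lactating pair, taken on day 1 of lactation at 2 months, each held a mutant of genotype Brca1 D11/D11;p53+/- and a control of genotype Brca1 D+/+;p53+/-, so all 4 mice carried the same p53 heterozygosity. The pregnant pair, at day 16.5 of pregnancy and 5 months of age, was given another genotype in the labels. Its mutant was Brca1 co/co and its control Brca1 +/co, both with MMTV-Cre, a Cre recombinase under the mouse mammary tumour virus promoter that is active mainly in epithelium, so other cells of that gland can keep Brca1. The series design text names only the germline genotype. Samples were assigned by their own labels.

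Aquaporins are membrane proteins that assemble as tetramers, each subunit holding its own pore. Classical aquaporins, here Aqp1, Aqp4, Aqp5 and Aqp8, pass water, and the aquaglyceroporins Aqp3, Aqp7 and Aqp9 also pass glycerol. Aqp1 is known from capillary endothelium and red blood cells, Aqp3 from the basolateral side of epithelia, Aqp5 from the apical side of secretory glands such as the salivary gland, Aqp7 from adipocytes, where it lets glycerol out, and Aqp4 from brain astrocytes and fast skeletal muscle fibres. In the lactating gland water follows lactose and ions into milk.

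Aqp3 was higher in pregnant than virgin glands and Aqp5, in those 4 arrays alone, lower, so the 250 bases before the start sites of these 2 members are shown. The sequences are from RefSeq on the GRCm38.p6 assembly, read 5′ to 3′ on the strand of the gene. Aqp3 is at chr4:41098184-41098433 (minus strand) and Aqp5 at chr15:99590778-99591027 (plus strand). Capitals mark matches, on either strand, to the motifs searched, which were the E-box CACGTG, the TATA box TATAAA and the GC box CCGCCC. The spaced motif TTCNNNGAA was searched too.
Aqp3: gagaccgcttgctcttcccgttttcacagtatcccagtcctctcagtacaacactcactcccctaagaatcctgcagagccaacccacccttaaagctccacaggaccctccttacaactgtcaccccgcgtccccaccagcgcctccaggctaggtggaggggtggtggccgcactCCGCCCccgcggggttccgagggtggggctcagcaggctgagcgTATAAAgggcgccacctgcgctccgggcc
Aqp5: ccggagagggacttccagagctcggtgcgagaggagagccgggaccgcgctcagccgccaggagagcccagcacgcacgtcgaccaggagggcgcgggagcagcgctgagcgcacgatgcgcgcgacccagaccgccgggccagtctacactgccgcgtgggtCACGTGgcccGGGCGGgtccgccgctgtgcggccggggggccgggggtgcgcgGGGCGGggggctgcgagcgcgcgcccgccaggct
The Aqp3 stretch held 1 TATA box from -29 to -24 and 1 GC box from -73 to -68, counted from the start site. The Aqp5 stretch held 1 E-box from -87 to -82 and GC boxes on the opposite strand from -77 to -72 and from -34 to -29. TTCNNNGAA was in neither. Over 32817 promoters of the same length, 12.4% held the TATA box, 32.7% the GC box, 6.02% the E-box and 7.01% TTCNNNGAA, and no 2 of these motifs overlapped in the sequences shown. The G and C content was 64% in the Aqp3 stretch and 78.4% in the Aqp5 stretch, against a median of 52.4% over all promoters. A match describes letters and does not show that a factor binds there.

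Signals are MAS5 intensities, scaled by array to a trimmed mean of 500, and tests were run on log2(signal + 52.1). Array medians were 119.9 to 157.8 in the virgin and pregnant arrays and 211.2 and 230.8 in the lactating ones, which also carry another array date. All mice were female, so the 20 probe sets for Y-linked genes should be dark. Their 90th percentile, used here as a level of background, was 74.9 to 118 in the virgin and pregnant arrays, 258 in the lactating mutant and 362 in the lactating control. The ratio of 3′ to 5′ actin signal, a measure of RNA degradation, was 2.03 and 2.74 in the virgin arrays and 1.37 to 1.91 in the other 4. For Gapdh the virgin control stood at 3.50 and the virgin mutant at 1.52, beside 0.732 to 1.20 elsewhere. Whether RNA quality had a part in differences from virgin glands was not tested. Brca1 was dim: its brightest probe set read 137 to 237.6 in controls and 156.7 to 486.5 in mutants, and its 4 probe sets could not be placed relative to the deleted part, so the signals are no check of the genotype. Each stage holds 2 mice, 1 of each genotype, and p-values measure the spread between these arrays. How many of all genes had no overlap between stages was not counted, so such orders of signals are given below as a description. Stage, array date and age cannot be told apart for the lactating glands, nor can stage, Brca1 allele and p53 status for the pregnant ones.

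Of the 7 aquaporins, Aqp1, Aqp3 and Aqp5 passed the filter on dim genes, which kept genes whose mean log2 value reached the median of all probe sets, equal to a signal of about 158. Aqp1 was above the background level in all 6 arrays. Aqp4, Aqp7 (on the probe set that represents it), Aqp8 and Aqp9 did not pass and entered no test by gene. The member nearest to the filter from below was Aqp4, 0.05 log2 units under it.

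**Figure D1:**
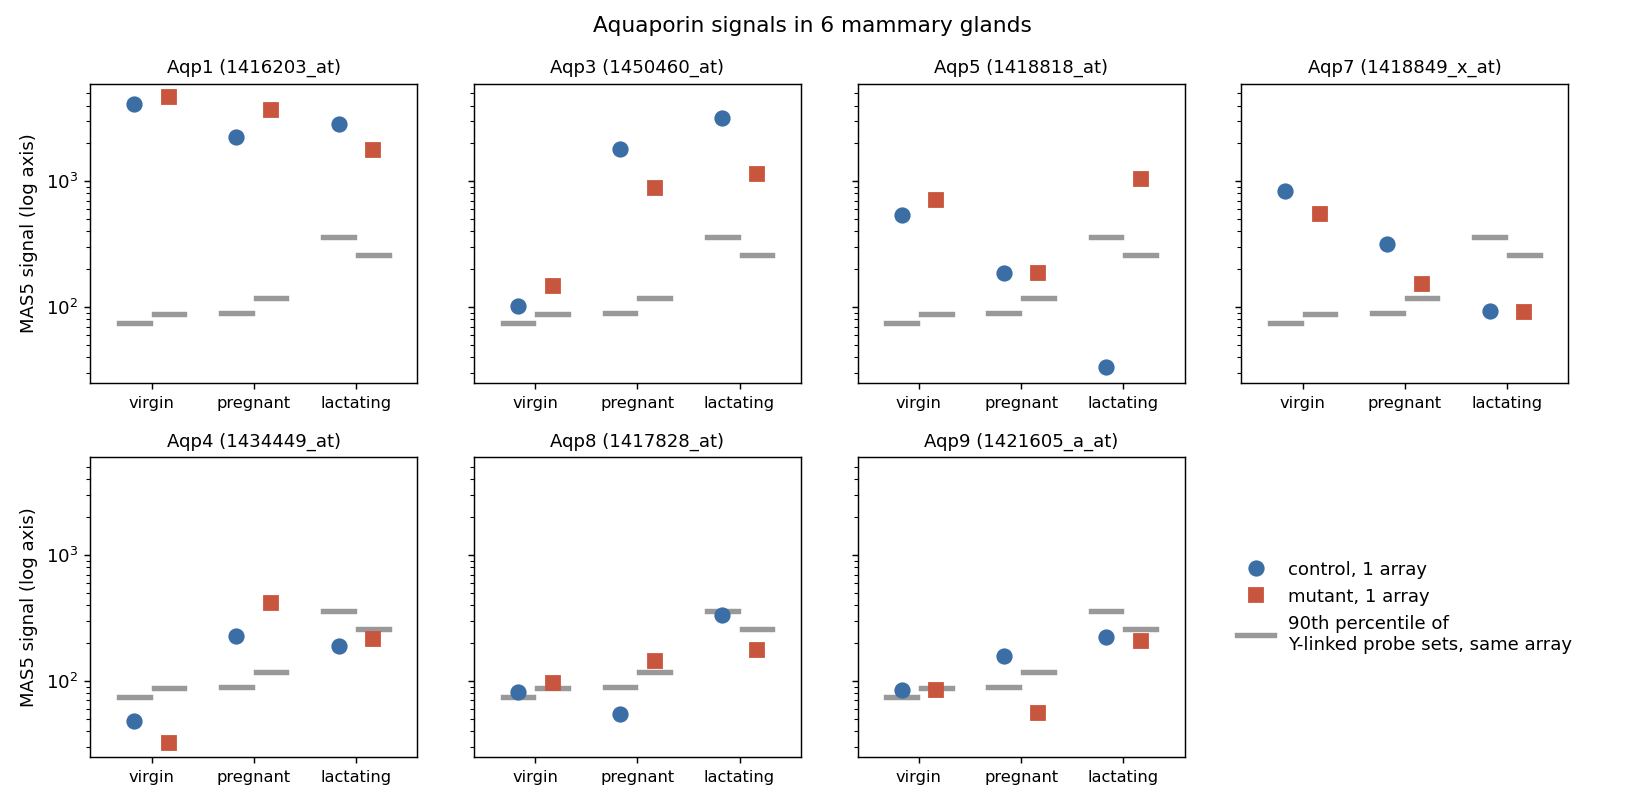
MAS5 signal (log axis) of 1 probe set per aquaporin in the control (circles) and mutant (squares) gland of each stage, 1 array per point, with grey bars at the 90th percentile of Y-linked probe sets on the same array. Aqp3 is lowest in the virgin glands (102.6 and 147.1), Aqp5 is lowest in the lactating control (33.5), and Aqp7 lies below the grey bars in both lactating glands.

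The epithelial aquaglyceroporin Aqp3 rose between virgin and pregnant glands and stood at a like level on day 1 of lactation. Its brightest probe set, 1450460_at, read 102.6 in the virgin control and 147.1 in its mutant partner. In the pregnant glands it read 1806.5 in the control and 882.4 in the mutant, and in the lactating glands 3163.4 and 1134.6. Both virgin glands were thus lower than all 4 others, and the lower of those 4 was the pregnant mutant. The log2 ratio of pregnant to virgin was 2.91 ± 0.39 (SE, n = 2 arrays per stage; limma adjusted p = 0.00534), a 7.51-fold rise. The ratio of lactating to virgin was 3.48 ± 0.39 (limma adjusted p = 0.00054), an 11.1-fold rise. Both virgin signals were under the filter signal of about 158, so Aqp3 passed through its pregnant and lactating signals. Its calls against virgin glands held with no filter on dim genes too. Between lactating and pregnant glands the log2 ratio was 0.57 ± 0.39 (limma adjusted p = 0.299, 95% interval -0.35 to 1.49), so the 2 upper stages had no settled order, and the mean of all Aqp3 probe sets gave -0.020. Of the 3 tested members Aqp3 alone was called between pregnant and virgin glands, a comparison that called 14.7% of 11332 genes, 750 higher and 917 lower in pregnancy. Higher genes made up 45.0% of the calls, and 27.8% with each array centred on its median.

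A pair of dimmer Aqp3 probe sets was also lower in both virgin than in both pregnant glands. Probe set 1422008_a_at read, control first, 39.8 and 2.3 in the virgin pair, 923.6 and 403.8 in the pregnant pair and 1504.2 and 442.2 in the lactating pair. Its virgin values lay below the background level, so pregnant glands were at least 7.52-fold and lactating glands at least 10-fold higher, taking that level as the floor. With every probe set tested as its own row, 1422008_a_at was called at log2 ratios of 3.24 ± 0.30 (SE; limma adjusted p = 0.00142) for pregnant and 3.63 ± 0.30 (limma adjusted p = 0.000138) for lactating against virgin. Tested this way, 15.2% of 19461 probe sets were called for pregnant against virgin, 52.1% for lactating against virgin and 31.9% for lactating against pregnant. Both virgin signals of 1422008_a_at were under the filter signal of about 158, so it passed through its pregnant and lactating signals. Its calls against virgin glands held with no filter on dim genes too. Probe set 1422007_at read 3.7 and 5.8 in the virgin pair, 949.6 and 378.5 in the pregnant pair and 930.2 and 44.2 in the lactating pair, control first. Its pregnant glands were at least 7.38-fold higher than virgin ones, and its lactating mutant lay under the background level, so lactating glands had no settled place on this probe set. It passed the filter narrowly, through its signals outside the virgin glands, so its calls in the fit of all probe sets are not used here. The last Aqp3 probe set, 1447727_at, lay below background in all 6 arrays at 2.5 to 53.2.

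Genes of milk secretion moved with Aqp3. Of 12 such genes, all above the filter, 10 were called higher in pregnant than virgin glands, where 6.62% of all genes tested were, with a median log2 ratio of 2.05 against -0.06 over all genes. In lactating against virgin glands 10 were called higher, where 23.8% of all genes were, with a median of 2.49 against -0.10. Their summed signal was 115413 and 145498 in the virgin glands, 301741 and 413710 in the pregnant and 471465 and 489870 in the lactating. How far a larger secretory epithelium accounts for Aqp3 was not tested. In a whole gland, more cells of a type and more RNA per cell cannot be told apart.

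Aqp5, the apical water channel of secretory glands, was lower in pregnant than in virgin glands when only those arrays were compared. Its single probe set, 1418818_at, read 540.5 in the virgin control, 712.5 in its mutant partner and 186.5 in both pregnant glands. The pregnant and virgin values did not overlap, which is given as a description. With those 4 arrays alone, which share an array date and leave out the lactating pair used to choose this gene, the log2 ratio was -1.52 ± 0.25 (SE, n = 2 arrays per stage; limma adjusted p = 0.00543), a 2.88-fold lower signal, in a fit that called 22.8% of 11389 genes. This fit was added after the values had been seen. In the fit of all 6 arrays the log2 ratio was -1.50 ± 0.78 (SE; limma adjusted p = 0.230, 95% interval -3.31 to 0.31), a fit whose error includes the spread of the 2 lactating arrays. Leaving out 1 lactating array leaves the other with a stage term of its own. Such refits rest on the same 4 pregnant and virgin arrays and add no support. Aqp3 was called in the 4 arrays too, at a log2 ratio of 2.96 ± 0.33 (limma adjusted p = 0.00147), and Aqp1 was not, at -0.60 ± 0.20 (limma adjusted p = 0.0650).

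For lactating glands no single Aqp5 level can be given. The lactating control read 33.5, below its background level of 362, and the lactating mutant read 1044, the highest Aqp5 signal of the series. The control was thus the lowest and the mutant the highest of the 6 arrays, on either side of all virgin and pregnant glands. Since these arrays helped to choose the gene, and 1 of them gives only a bound, no test of lactating glands against another stage is given for Aqp5.

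Aqp1, the channel of capillary endothelium, had its highest signals in the virgin glands. Probe set 1416203_at read 4096.8 in the virgin control and 4660.5 in its mutant partner. The pregnant pair had 2236 in the control and 3681.3 in the mutant, and the lactating pair 2832.1 and 1770.9. All 4 other glands were below both virgin glands, and the pregnant and lactating values overlapped. The log2 ratio of lactating to virgin was -0.95 ± 0.31 (SE, n = 2 arrays per stage; limma adjusted p = 0.0346), a 1.93-fold lower signal. With Aqp3, that made 2 of 3 tested members called between these stages, where 52% of all genes were called, 45.7% of them higher in lactation and 18.8% with arrays centred. The Aqp1 call did not hold under quantile normalization (adjusted p = 0.116), without a variance trend (0.0520), or without the virgin mutant (0.140), the virgin control (0.102) or the lactating mutant (0.241, with a log2 ratio of -0.39). Pregnant against virgin gave -0.60 ± 0.31 (limma adjusted p = 0.228, 95% interval -1.32 to 0.12) and lactating against pregnant -0.35 ± 0.31 (limma adjusted p = 0.410, 95% interval -1.07 to 0.37). None of the 3 tested members was called between lactating and pregnant glands, where 31.8% of genes were called, 1686 higher and 1919 lower in lactation (46.8% higher, and 16.7% with arrays centred). Leaving out the lactating control brought Aqp1 to -0.90 (limma adjusted p = 0.0414) there.

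Endothelial genes were lower at the same stages. All 12 genes of the list were above the filter, and 9 were called lower in lactating than virgin glands, where 28.2% of all genes were, and 4 in pregnant than virgin glands, where 8.09% were, with median log2 ratios of -1.30 and -0.65. Their summed signal was 11896 and 12736 in virgin, 7064 and 7378 in pregnant and 6033 and 6917 in lactating glands. The red blood cell list could say little, since 1 of its 8 measured genes was above the filter. The part of either cell type in the Aqp1 signal was not tested.

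**Figure D2:**
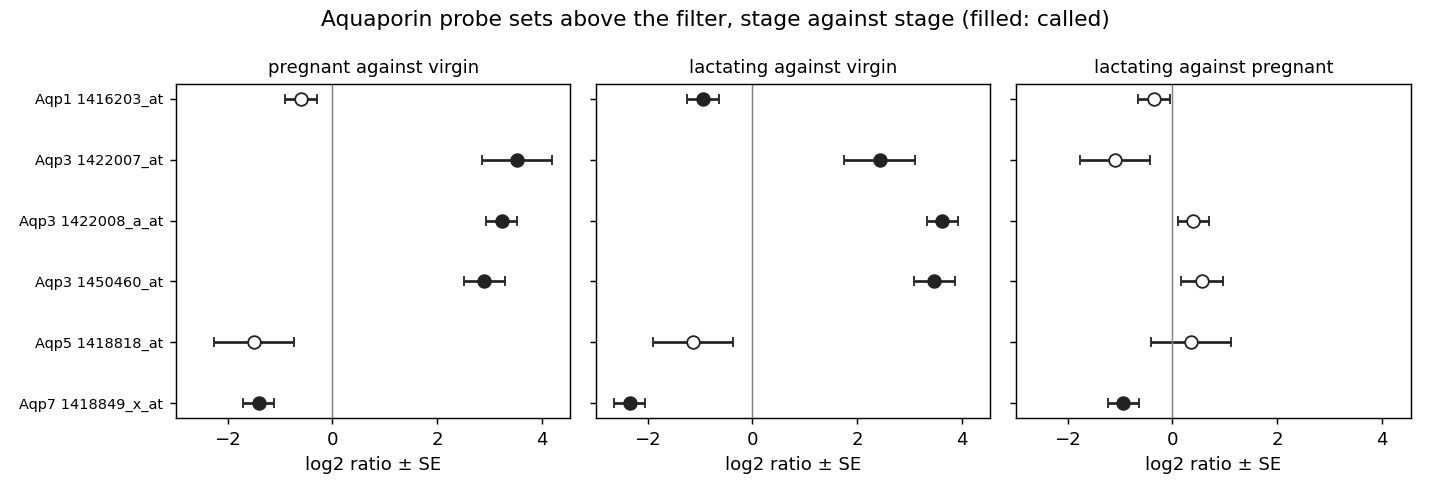
Log2 ratio between stages with its standard error (horizontal bars) for the 6 aquaporin probe sets above the filter, from the limma fit with every probe set as its own row and 2 arrays per stage, filled points being called at an adjusted p of 0.05. The 3 Aqp3 probe sets lie right of zero against virgin glands in pregnancy and lactation, Aqp7 lies left of zero in all 3 panels, and Aqp5, whose lactating contrasts are shown as a description, has the widest bars.

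Aqp7, the glycerol channel of adipocytes, was highest in the virgin glands on its brighter probe set. That probe set, 1418849_x_at, carries the suffix of probe sets that can also match other transcripts. It read, control first, 832.1 and 552.9 in the virgin pair, 318.8 and 153.7 in the pregnant pair and 92.9 and 91.6 in the lactating pair. No stage overlapped another, and both lactating values lay below the background level. Lactating against virgin gave a log2 ratio of -2.34 ± 0.30 (SE; limma adjusted p = 0.000659), and with the background level as the floor the virgin glands were at least 2.22-fold higher. The pregnant mutant and both lactating signals were under the filter signal of about 158. This probe set thus passed through its virgin and pregnant control signals. The call of lactating against virgin held with no filter on dim genes too. Pregnant against virgin gave -1.40 ± 0.30 (limma adjusted p = 0.0201), a call lost without either pregnant or either virgin array (adjusted p of 0.0716 to 0.168). Lactating against pregnant gave -0.94 ± 0.30 (limma adjusted p = 0.0459), but the pregnant mean did not exceed the lactating background, so no fold is given, and the call was lost under 8 of the alternatives. The other probe set, 1418848_at, read, control first, 130.3 and 242.9 in the virgin pair, 136.6 and 30.2 in the pregnant pair and 28.6 and 38.1 in the lactating pair, and it did not pass the filter.

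Adipocyte genes fell over the same stages. Of the 10 measured, all above the filter, 3 were called lower in pregnant (8.09% of all genes) and 7 in lactating than virgin glands (28.2%), and 6 in lactating than pregnant glands (16.9%). The median log2 ratios were -0.76, -2.51 and -1.37. Their summed signal was 137515 and 137561 in virgin, 84825 and 102432 in pregnant and 53409 and 60075 in lactating glands. Of 9 tested genes of glycerol handling, the called ones were all lower. In pregnancy 3 were lower than in virgin glands: the acyltransferase Gpat3 at a log2 ratio of -2.05, Pck1, which feeds glycerol synthesis, at -1.06, and the monoacylglycerol lipase Mgll at -0.98, beside 8.09% of all genes called lower. In lactation 5 were lower than in virgin glands, with Pck1 at -2.72 and Gpat3, whose lactating signals lay below background, at least 7.56-fold lower, beside 28.2%. From pregnancy to lactation 3 were lower, with Pck1 at -1.66, beside 16.9%. The list medians were -0.82, -0.81 and -0.20, beside -0.06, -0.10 and -0.04 over all genes. What share of the Aqp7 signal followed the adipocyte content was not tested.

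Aqp9, the third aquaglyceroporin, known mainly from liver, was dim. Probe set 1421605_a_at read, control first, 84.4 and 84.8 in the virgin pair, 158 and 55 in the pregnant pair and 222.7 and 206.9 in the lactating pair. Probe set 1424011_at read 118.3 and 79.1, 16.9 and 75.4, and 90.6 and 229.7 in the same order. The lactating values of both probe sets lay below the background of those arrays, so the higher numbers there are no rise.

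Aqp4, known from muscle and brain, was above background in the pregnant glands alone on its brightest probe set. Probe set 1434449_at read, control first, 48.1 and 31.8 in the virgin pair, 228.3 and 412.5 in the pregnant pair and 189.7 and 213.9 in the lactating pair. Taking the background level as the floor for the virgin glands, pregnant glands were at least 3.78-fold higher, a value with no test since Aqp4 did not pass the filter. A second probe set, 1425382_a_at, read 3.8 and 53.6, 158.1 and 170, and 141.3 and 163.8 in the same order and gave at least 2.02-fold. The dimmest, 1447745_at, read 69.2 to 197 with no such order. Between pregnant and lactating glands Aqp4 had no settled order. With the higher lactating background as the floor, 1434449_at gave at least 1-fold, and the pregnant mean of 1425382_a_at did not exceed that floor.

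Skeletal muscle genes were higher in pregnant than virgin glands as well. All 12 were above the filter, and all 12 were called higher in pregnant than virgin glands (6.62% of all genes), 9 higher in lactating than virgin (23.8%) and 9 lower in lactating than pregnant glands (16.9%), with median log2 ratios of 2.995, 1.76 and -1.32. Their summed signal was 15936 in the virgin mutant and 45111 in the virgin control, 170311 and 193602 in the pregnant and 82413 and 86355 in the lactating glands. Of 6 measured astrocyte and glial genes 3 were above the filter, and the astrocyte genes Gfap, S100b and Slc1a2 were under it. The 3 above it had no common direction between pregnant and virgin glands. Slc1a3 was called lower at a log2 ratio of -2.32, Aldoc higher at 1.21, and Mbp, at -0.70, was not called. How much of the Aqp4 signal came with muscle was not tested.

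Aqp8, known from gut, pancreas and salivary gland, did not exceed the brightest Y-linked probe set in any array. It was above the background level, their 90th percentile, in both virgin glands and the pregnant mutant. Probe set 1417828_at read, control first, 81.1 and 96.5 in the virgin pair, 54.7 and 143.8 in the pregnant pair and 333.8 and 175.8 in the lactating pair, and both lactating values were below the background level.

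**Figure D3:**
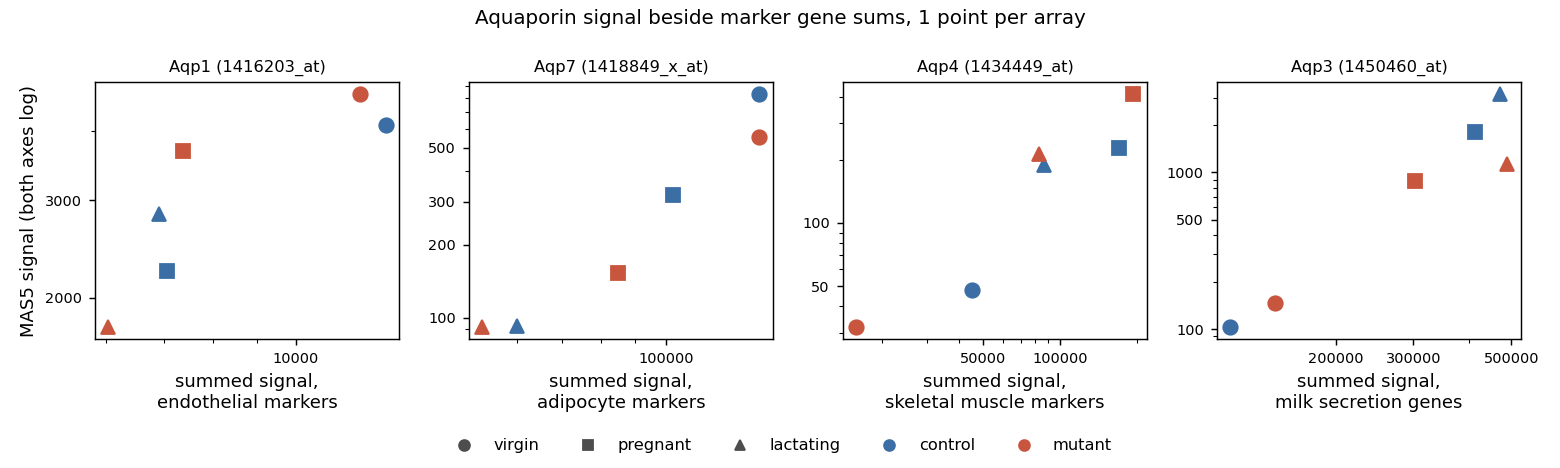
MAS5 signal of 4 aquaporin probe sets against the summed signal of a marker list, both axes log, 1 point per array, with shape for stage and colour for genotype. The virgin glands have the highest endothelial and adipocyte sums beside the highest Aqp1 and Aqp7 signals, and the lowest muscle and milk secretion sums beside the lowest Aqp4 and Aqp3 signals.

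Within pairs, the mutant and the control differ by 1 mouse each, so ratios carry no test. Across the 3 pairs the limma fit with stage as a block called 0 of 11332 genes (0%), with 534 at an unadjusted p under 0.05. It gave log2 ratios of mutant to control of 0.08 ± 0.25 (SE) for Aqp1, -0.69 ± 0.32 for Aqp3 and 1.35 ± 0.63 for Aqp5. These ratios are a description, since they include the lactating pair that helped to choose the members, and that of Aqp5 rests largely on this pair. In the lactating pair Aqp5 read 1044 in the mutant and 33.5 in the control, a plain ratio of 31.2. Because the control lay below the background level of 362, the mutant was at least 2.89-fold higher on that floor. On the log2 scale this pair gave a ratio of 3.68, the virgin pair 0.37 and the pregnant pair 0, whose signals were identical at the precision of the file. Of the 3 tested members, Aqp3 and Aqp5 differed at least 2-fold in the lactating pair, against 6.39% of all genes, and nothing is read from that count since this pair helped to choose the members.

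Aqp3 was lower in the mutant in the pregnant and the lactating pair on all 3 of its probe sets above the filter. On 1450460_at the control was 2.05 times the mutant in the pregnant pair and 2.79 times in the lactating pair, with log2 ratios of -0.99 and -1.44 and of 0.36 in the virgin pair. On 1422008_a_at the log2 ratios were -1.10 in the pregnant pair, -1.65 in the lactating pair and -0.76 in the virgin pair, where both signals were below background. On 1422007_at they were -1.22 and -3.35, and the lactating control was at least 3.61-fold higher when the floor replaces the mutant's signal. These probe sets share the gene and the 2 mice of each pair and are not replicates. The sum of milk secretion genes in the mutant was 0.729 times that of the control in the pregnant pair and 1.04 times in the lactating pair, and the sum of 14 luminal epithelial genes was 0.747 and 1.52 times. In the pregnant pair 1.94% of genes and in the virgin pair 2.71% differed at least 2-fold on the log2(signal + 52.1) scale. None of the 3 tested members did on that scale, where Aqp3 in the pregnant pair, at -0.99, lay just inside it.

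The other members had smaller or mixed ratios. Aqp1 had log2 ratios of mutant to control of 0.71 for the pregnant pair, 0.18 for the virgin pair and -0.66 for the lactating pair. For Aqp7 on 1418849_x_at it was -0.85, -0.55 and -0.01, and on 1418848_at -1.20, 0.69 and 0.16, so the probe sets disagreed in the virgin pair. Aqp4 on 1434449_at had 0.73, -0.26 and 0.14 and Aqp8 had 0.88, 0.16 and -0.76. The Aqp9 probe sets had opposite signs in the pregnant pair, -0.97 on 1421605_a_at and 0.89 on 1424011_at.

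**Figure D4:**
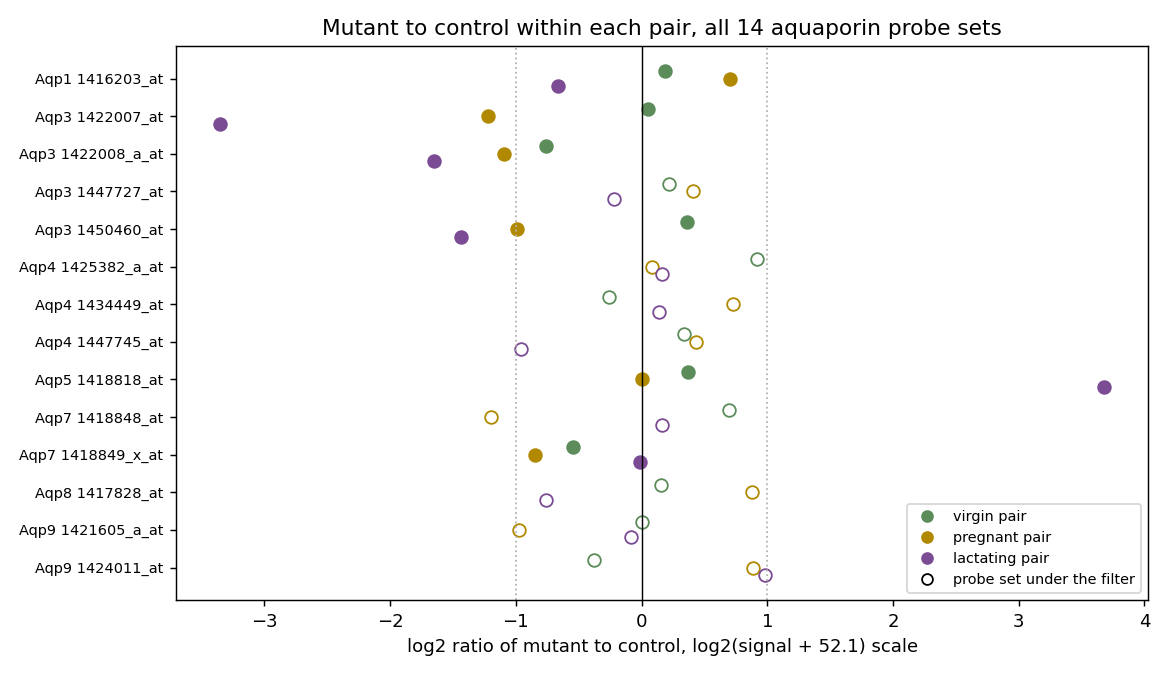
Log2 ratio of mutant to control on the log2(signal + 52.1) scale for all 14 aquaporin probe sets, 1 point per pair coloured by stage, with open circles for probe sets under the filter and dotted lines at 2-fold. The lactating pair holds both extremes, Aqp5 at 3.68 and Aqp3 1422007_at at -3.35.

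In the lactating pair that differed in Aqp5, basal and luminal marker genes were mostly higher in the mutant, and skin genes went both ways. Of 10 basal genes 8 were higher in the mutant and 2 lower, of 14 luminal genes 10 and 4, and of 11 skin genes 5 and 6. The median log2 ratio was 0.59 for basal and 0.74 for luminal genes. How many of all genes were higher in this mutant was not counted, so nothing is read from these counts. Mutant to control, the summed signals stood at 1.40 for basal, 1.52 for luminal and 1.70 for skin genes, with 5 of the 11 skin genes above the filter and the skin markers Krt1, Krt2, Flg and Ivl under it. The basal keratin Krt15 read 757.5 in the lactating mutant and 61.6 in the control, Krt5 2691.3 and 1205.8, and the growth factor binding protein Igfbp2 2476.1 and 524.5. These 3 genes were picked after their values were seen, and Krt15 is counted in the skin list. The Krt15 signal of the lactating control lay below its background level of 362, so the size of that difference is not settled. The 2 basal genes lower in the mutant were Trp63, at a log2 ratio of -0.14, and Myh11, at -0.02. In the skin list the median log2 ratio was -0.002, and the sum was carried largely by Sbsn, at 3273.7 in the mutant and 1222.9 in the control. The list of salivary and other exocrine glands had a ratio of 1.46, with 7 of 12 genes above the filter and Bpifa2, Cst10, Dcpp1, Prol1 and Smr3a under it. Their part in the Aqp5 ratio was not tested. Of the genes next to Aqp5 on chromosome 15, Faim2 and Racgap1 were above the filter, with log2 ratios of mutant to control in the lactating pair of 0.48 and -0.52, and Aqp2 and Aqp6 were under it. On chromosome 4 Aqp3 and Aqp7 are adjacent genes, and between pregnant and virgin glands their called probe sets went opposite ways.

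Of the aquaporins outside the members, Mip, the lens aquaporin, lay below background in all arrays at 3.0 to 51.2. The kidney channel Aqp2 read 14.1 to 114.1 in virgin and pregnant glands and reached 485.9 in the lactating control, while its mutant partner, at 208.8, lay below background. The brightest probe set of the intracellular Aqp6, 1420035_at, read 67.6 to 140.2 in virgin and pregnant glands and 328.9 and 281.5 in the lactating pair, where the control lay below background. Taking the probe set that represents each gene, Aqp12 was the 1 other aquaporin to pass the filter, and it was not called between stages, its log2 ratios of 1.20, 1.48 and 0.28 having limma adjusted p-values of 0.425, 0.220 and 0.843. Its signals, control first, were 19.1 and 135.5 in the virgin pair, 81.9 and 475.7 in the pregnant pair and 715 and 82.9 in the lactating pair, so neither genotype was the higher throughout. The probe sets of Aqp11, an aquaporin of intracellular membranes, disagreed. Probe set 1429254_at read 435.2 and 357.7 in virgin and, below background, 40.1 and 28.5 in lactating glands. Probe set 1447606_x_at went the other way, from 300.2 and 293.1 to 1219.2 and 1071.1, with a log2 ratio of 1.78 ± 0.26 (SE; limma adjusted p = 0.00111), and so no direction is given for Aqp11.

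Genes that set the osmotic pull for milk water were compared in lists. Of 8 tested genes of lactose synthesis, 4 rose in pregnancy and none fell, where 14.7% of all genes were called. In lactation 5 were higher and 1 lower than in virgin glands, where 52% were called. The list medians were 0.86 and 1.04. Lalba, also in the milk secretion list, is the milk protein that turns galactosyltransferase into lactose synthase. Its virgin signals lay below background, so it was at least 25.7-fold higher in pregnant and at least 620-fold higher in lactating glands. B4galt1, that galactosyltransferase, had log2 ratios of 1.67 and 2.30. The glucose transporter Slc2a1 rose by 1.19 and the UDP-galactose transporter Slc35a2 by 1.15 in pregnancy. From pregnancy to lactation Lalba rose by a further 4.56 and Slc35a2 by 0.78, the 2 genes called there, beside 14.9% of all genes called higher.

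The calls among ion transport genes were about as frequent as among all genes. Of 18 tested, 2 rose in pregnancy, the potassium channel Kcnk1 at 1.37 and the chloride channel Ano1 at 1.19, and none fell, beside 14.7% of all genes called. In lactation 5 were higher and 6 lower than in virgin glands, beside 52%, with Kcnk1 at 2.16 and the sodium channel subunit Scnn1b at 1.74 above, and the sodium pump subunits Atp1b1 at -2.06 and Atp1b3 at -1.60 below. From pregnancy to lactation 3 rose, with Scnn1b at 2.13 and Scnn1a at 1.23, and 3 fell, with Atp1b1 at -1.83 and the potassium channel Kcnn4 at -1.17, beside 31.8%. Another Atp1b1 probe set, with the _x_at suffix, did not share that fall: it read 1034.2 and 1120.8 in pregnant and 1073.5 and 1542.6 in lactating glands. A brighter Ano1 probe set, with the _s_at suffix, rose less in pregnancy. Control first, it read 3636.9 and 5430.4 in virgin and 5910.2 and 6377.3 in pregnant glands. The list medians were -0.16, 0.14 and -0.30. Of 8 tested genes of osmolyte and volume response, 1 was called in pregnancy, a share near the 14.7% of all genes. It was the volume-regulated anion channel subunit Lrrc8c, lower at -0.97. In lactation 3 were lower than in virgin glands, beside 52% of all genes called. They were Clns1a at -1.44, Lrrc8c at -1.24 and the taurine transporter Slc6a6, at least 4.39-fold lower with its lactating signals below background, and the list medians were -0.27 and -0.08. From pregnancy to lactation 2 of the 8 were called lower and 1 higher, beside 31.8% of all genes called. Slc6a6 was at least 3.18-fold lower, Clns1a was at -1.86, and the anion channel subunit Lrrc8d at 1.05. Of 10 tested partners and regulators of aquaporins, 1 was called in pregnancy, a share near the 14.7% of all genes. It was Pparg, a transcription factor of adipocytes that is also in the adipocyte list, lower at -1.70. In lactation, where its signals lay below background, it was at least 11.7-fold lower than in virgin glands. In lactation 3 of the 10 were lower and 3 higher than in virgin glands, a share near the 52% of all genes. The lectin Lgals3 was lower at -2.15, and the ubiquitin ligase Nedd4l and the membrane linker Ezr were higher at 0.98 and 0.97. In these lists and that of glycerol handling no gene was called between mutant and control.

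Genes with the pattern nearest to each tested aquaporin were ranked by Pearson r of log2 values over the 6 arrays, which share stage and array date. With 11332 genes searched on 6 arrays, the highest r can lie near 1 through the search alone. For Aqp3 they were 4833447I15Rik (r = 0.994), Nucb2 (0.994) and Slc10a7 (0.990). Nucb2, which encodes the precursor of nesfatin-1, read, control first, 880.7 and 811.4 in the virgin pair, 4092.8 and 2412.5 in the pregnant pair and 6202.9 and 2901.9 in the lactating pair, lower in the mutant in all 3 pairs. For Aqp5 they were the adaptor Nck2 (0.986), the small heat shock protein Hspb1 (0.983) and Zfp820 (0.979). This ranking includes the lactating pair that helped to choose Aqp5, its control below background, and is a description only. Hspb1 read 3133.2 and 3721.2, 2403.7 and 2611.5, and 1870.8 and 3646.7 in the same order. For Aqp1 they were Rnf207 (0.990), Ints13 (0.989) and Mcm8 (0.988). Both lactating signals of 4833447I15Rik, Zfp820, Rnf207 and Mcm8 lay below the background level, so the lactating part of their patterns is not settled.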

How the data were processed

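Each deposited value is the linear MAS5 signal intensity of 1 probe set, with MAS5 named, without a version, in the submitters' processing notes. No further scaling was applied, and tests used log2(signal + 52.1), with 52.1 the 25th percentile of all values, so ratios of dim genes are understated. Of 45101 probe sets 34945 carry 1 gene symbol, for 18193 genes. Each gene was represented by its brightest probe set, with those prone to cross-hybridisation (_x_at, _s_at) used only where there was no other. The filter, a mean log2 value of 7.72 (the median over all probe sets), left 11332 genes to test. Limma 3.58.1 in R 4.3.3 (lmFit, eBayes with a variance trend) fitted stage and genotype together on 6 arrays, with residual degrees of freedom of 2 and prior degrees of freedom of 5.53, and p-values were adjusted by Benjamini-Hochberg and called at 0.05. The number of arrays limits the precision.

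Arrays were paired by the stage that the labels give. Across genes, the 2 arrays of a pair deviated together from their genotype means, at r = 0.582 for pregnant, 0.858 for virgin and 0.819 for lactating arrays (genes are not independent replicates). A fold against a group below background uses the higher of its own signal and the 90th percentile of Y-linked probe sets on each array, as geometric means, for members and, on the tested probe set, for list genes. The members and the gene lists were chosen with earlier results of these data known. Named from each list were up to 4 called genes with the largest ratios, some left out for brevity, and for each tested member the 3 genes of highest Pearson r. Marker sums add the brightest probe set of each gene, whatever its suffix. Neighbouring genes follow RefSeq order on GRCm38.p6. Alternatives were other scalings, pseudocounts of 14.9 and 168.7, other filters, probe set rules, no variance trend, no block or genotype term, and leaving out arrays. The fit of 4 arrays, the use of the brightest probe set whatever its suffix and the alternatives for single probe sets were added after seeing the data. Code was tested on simulated data. Figures were drawn with matplotlib 3.10.9.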

Additional observations from a re-analysis of the deposited data

How the results depend on the processing

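The calls of Aqp3 against virgin glands, on the probe set that represents it, held under every alternative run, with log2 ratios of 2.10 to 3.68 for pregnant (adjusted p up to 0.0248) and 2.66 to 4.25 for lactating (up to 0.00167) when arrays were left out. Without single arrays the number of called genes ranged from 317 to 2659 for pregnant against virgin (main value 1667), from 3362 to 5640 for lactating against virgin (5887) and from 1097 to 3345 for lactating against pregnant (3605). With every probe set as its own row the counts were 2965, 10138 and 6214, with the filter at the 75th percentile they were 3500 for lactating against virgin and 2099 for lactating against pregnant (fewer genes tested), and the 4 pregnant and virgin arrays alone gave 2599. Centring arrays on their medians moved the median log2 ratio of all genes to -0.23, -0.69 and -0.45, and the share of called genes that were higher from 45.0% to 27.8%, from 45.7% to 18.8% and from 46.8% to 16.7%. Mutant against control called 0 genes in every alternative, among them the paired design without its replicate block and without each pair.

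Those of Aqp3 1422007_at were lost without the virgin control. Signs turned for ratios that were not called. Lactating against pregnant, Aqp5 (a description, as 1 of its lactating arrays gives only a bound) was -0.051 and Aqp3 1422008_a_at -0.017 under median centring, and Aqp3 was -0.020 with the mean of its probe sets. Pregnant against virgin, Aqp11 1447606_x_at was -0.012 under quantile normalization and -0.10 under median centring. Leaving out arrays gave ranges of -0.24 to 0.45 for Aqp1 mutant against control, -2.92 to 0.61 for Aqp5 lactating against virgin, and, lactating against pregnant, -0.90 to 0.20 for Aqp1, -1.42 to 2.12 for Aqp5 and -1.09 to 0.29 for Aqp3 1422007_at. For Aqp11 1447606_x_at, pregnant against virgin, the range was -0.24 to 0.39. With the mean of all probe sets the virgin pair ratio of Aqp4 was 0.33 and the pregnant pair ratio of Aqp9 -0.04. The cause was not tested, apart from the fewer arrays or genes that an alternative leaves by construction. The signal over background limits Aqp4, Aqp7, Aqp8 and Aqp9 in the lactating arrays.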
